A study of Mus musculus with 6 samples.

Results

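The genes described are 10 components and transcriptional outputs of the PI3K-FOXO pathway, out of 19505 genes measured: Pik3ca, Pik3r1, Pik3ip1, Irs1, Irs2, Foxo1, Foxo3, Ccng2, Sesn1 and Gadd45a. They were selected by name, on values of the same comparison that is described here, so their levels and differences are a description and carry no test of their own. All 10 were measured, each by 1 probe set, and all 10 had mean signals above the 95th percentile of the negative-control probe sets (7.92 on the log2 scale) in both groups. The cells came from a fibrosarcoma of C57BL/6 background whose Rras2, a RAS-related GTPase, is the Q72L form, and both groups carry it. The controls (pLKO, replicates 1 to 3) had received the empty lentiviral vector, and the knockdown (shRras2, replicates 4 to 6) a vector with 1 shRNA against Rras2, sh#89, so effects of that shRNA on other targets cannot be told apart from the loss of Rras2. The labels do not say whether the cells are 1 clone, nor whether replicates were grown as separate cultures, and the p-values then measure only the spread between these arrays, which may be technical.

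PI3K is a lipid kinase made of a catalytic and a regulatory subunit, and receptors recruit it through adaptors such as the insulin receptor substrates. Its lipid product activates the kinase AKT, which phosphorylates FOXO transcription factors and keeps them out of the nucleus. When PI3K output is low, FOXO factors enter the nucleus and raise transcripts of cell-cycle arrest, stress and feedback genes. RAS proteins, RRAS2 among them, can bind and activate PI3K catalytic subunits. The arrays measured RNA only, not phosphorylation or the place of FOXO proteins in the cell.

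Rras2 itself had log2 RMA signals of 10.67, 10.75 and 10.82 on the control arrays and 9.09, 9.69 and 9.21 on knockdown replicates 4, 5 and 6. It fell by 1.41 ± 0.14 on the log2 scale (SE; limma adjusted p = 0.00163), and every knockdown array lay below every control, with least loss on replicate 5, where 48.1% of the mean control signal was left. The exact two-sided permutation test gave p = 0.1, the smallest possible with 3 arrays against 3. Across all genes, 1017 passed the threshold of 0.05 on limma's adjusted p (5.21%), 584 of them higher in the knockdown (2.99%) and 433 lower (2.22%). With each array centred on its median these counts were 506 and 567. The fibroblast markers Vim (13.84 ± 0.03 in the controls), Fn1 (13.21 ± 0.04) and S100a4 (11.05 ± 0.03; SD, n = 3 each) were bright, while 5 of 11 measured fibroblast markers, among them Thy1 and Col1a2, were below the negative-control percentile in both groups. So were 7 of 7 measured immune, 6 of 6 endothelial and 7 of 7 epithelial markers.

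Among the 10 genes, 6 were higher in the knockdown and past the threshold, 0 were lower, and 4 did not pass. Of all genes 5.21% passed, and nothing is read from the excess because the 10 were chosen on this contrast. The counts at an unadjusted limma p under 0.05 were the same, 6 and 0, where 19.1% of all genes lay under it, 9.11% higher and 10.0% lower. Separate ranges in the 2 groups were seen for 6 of the 10, against 25.5% of all genes. The PI3K inhibitor gene Pik3ip1 had the largest difference, followed by the regulatory subunit gene Pik3r1 and the FOXO targets Ccng2, Sesn1 and Gadd45a, and then the adaptor gene Irs1. The catalytic subunit gene Pik3ca, the adaptor gene Irs2 and the FOXO genes Foxo1 and Foxo3 had overlapping groups.

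**Figure D1:**
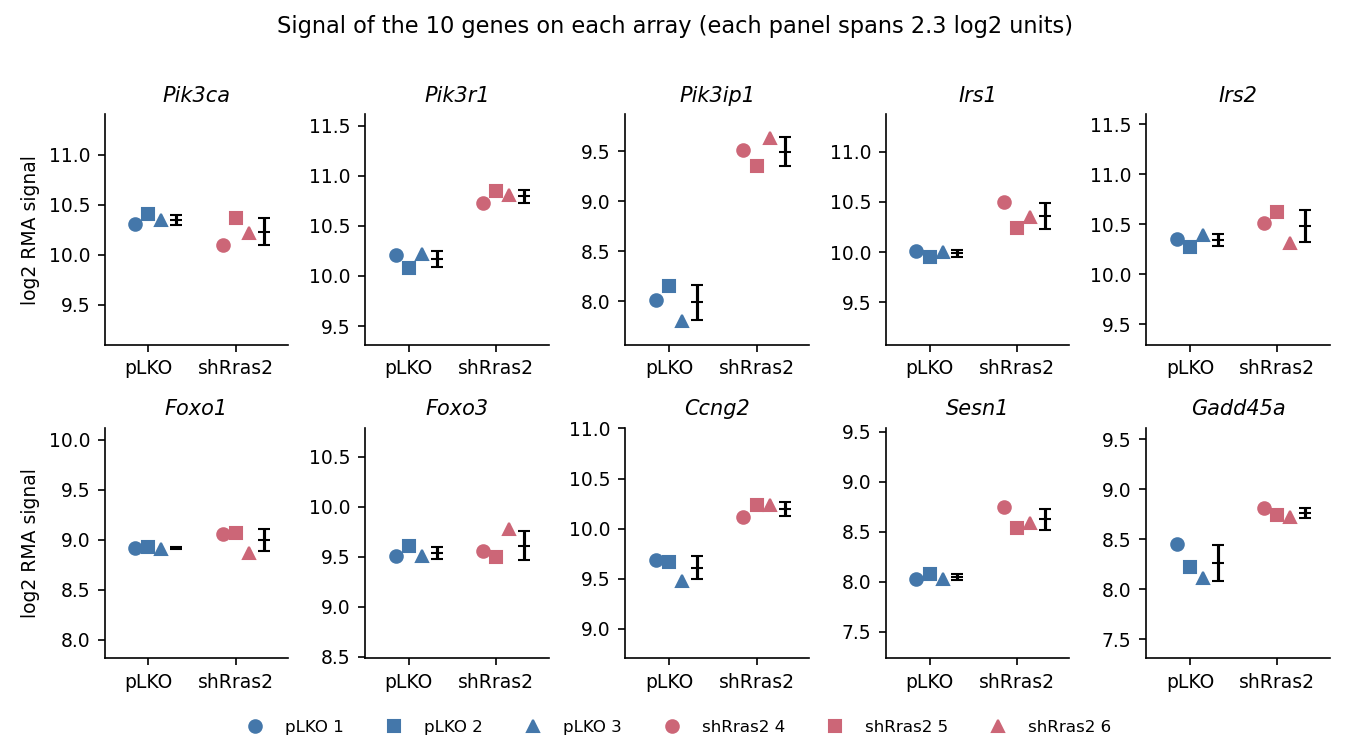
Log2 RMA signal of each of the 10 genes (vertical axis, 2.3 log2 units in every panel) on the 3 pLKO and 3 shRras2 arrays, 1 point an array, with group means and SD as black bars. The groups are apart for Pik3r1, Pik3ip1, Irs1, Ccng2, Sesn1 and Gadd45a and overlap for Pik3ca, Irs2, Foxo1 and Foxo3.

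Pik3ca encodes the alpha catalytic subunit of class I PI3K. Its signals were 10.30, 10.41 and 10.34 in the controls and 10.10, 10.37 and 10.22 in the knockdown. Knockdown replicate 5 lay within the range of the controls and replicates 4 and 6 below it. The log2 difference was -0.12 ± 0.09 (SE), with a 95% interval from -0.33 to 0.08. The beta and delta catalytic genes did not pass either. Pik3cb differed by 0.06 ± 0.12 (limma adjusted p = 0.838), and Pik3cd by 0.31 ± 0.10 (limma adjusted p = 0.127), the latter from levels below the negative-control percentile on all 6 arrays.

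Pik3r1 encodes the main regulatory subunit, which stabilises the catalytic subunit, holds it in check and docks it to phosphorylated receptors and adaptors. It read 10.21, 10.08 and 10.22 in the controls and 10.72, 10.85 and 10.81 in the knockdown. All knockdown arrays were above all controls, and the highest of them was replicate 5, the array with the most Rras2 left. Its difference was 0.63 ± 0.08 (SE; 95% interval 0.44 to 0.81), 1.54-fold. Subtracting the Pik3ca signal from that of Pik3r1 within each array gave -0.09, -0.33 and -0.13 in the controls and 0.63, 0.48 and 0.59 in the knockdown. That within-array difference shifted by 0.75, which shows unequal change of the pair and not a ratio of their transcripts, since probe sets differ in brightness.

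The other class IA regulatory genes were not among the 10. Pik3r3 rose from 9.82, 9.92 and 9.60 to 10.58, 10.47 and 10.61, a difference of 0.78 ± 0.10 (SE; limma adjusted p = 0.00407), and passed in all 6 fits without 1 array. Pik3r2 had non-overlapping groups, 9.13 ± 0.04 and 9.44 ± 0.06 (SD, n = 3 each), and a difference of 0.31 ± 0.08 that missed the threshold (limma adjusted p = 0.0561). The alternatives put Pik3r2 on either side of it, with limma adjusted p from 0.0153 with a trended robust variance to 0.178 without knockdown replicate 6.

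Pik3ip1 encodes a membrane protein that binds the catalytic subunit and inhibits it, and its gene is a described FOXO target. Its signals were 8.02, 8.15 and 7.80 in the controls and 9.51, 9.35 and 9.63 in the knockdown. The groups were 1.19 log2 units apart at their nearest arrays, while control replicate 3 lay under the negative-control percentile. The mean went from 7.99 ± 0.18 to 9.50 ± 0.14 (SD, n = 3 each), a difference of 1.51 ± 0.11 (SE; 95% interval 1.25 to 1.76) or 2.84-fold. Because signals near background are compressed, the fold can understate the change. Without any 1 array the difference stayed between 1.41 and 1.59.

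Irs1 and Irs2 encode adaptors that insulin and IGF receptors phosphorylate, which creates docking sites for the PI3K regulatory subunit. Irs1 read 10.01, 9.95 and 10.00 in the controls and 10.50, 10.24 and 10.35 in the knockdown, with every knockdown array higher and replicate 5 nearest the controls. The difference was 0.37 ± 0.09 (SE; 95% interval 0.17 to 0.57). Irs1 passed in 1 of the 6 fits without 1 array, the one without knockdown replicate 5, and not after median centring of the arrays.

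Irs2, the more typical FOXO target of the pair, read 10.35, 10.27 and 10.40 in the controls and 10.51, 10.62 and 10.31 in the knockdown. Knockdown replicate 6 lay inside the control range and the other two above it. The difference was 0.14 ± 0.10 (SE; 95% interval -0.08 to 0.36). The upper bound lies just under the difference of Irs1, but the intervals of Irs1 and Irs2 overlap. Irs1 minus Irs2 within each array was -0.34, -0.33 and -0.39 in the controls. It was -0.02, -0.38 and 0.04 on knockdown replicates 4, 5 and 6, so replicate 5 lay within the control range.

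Foxo1 and Foxo3 encode the FOXO factors that AKT restrains. Foxo1 had signals of 8.92, 8.92 and 8.90 in the controls and 9.05, 9.07 and 8.87 in the knockdown. Foxo3 read 9.51, 9.60 and 9.50 in the controls and 9.55, 9.50 and 9.77 in the knockdown. For each gene 1 knockdown array, replicate 6 for Foxo1 and replicate 5 for Foxo3, lay at or just below the lowest control. Foxo1 differed by 0.08 ± 0.08 (95% interval -0.11 to 0.27) and Foxo3 by 0.07 ± 0.09 (95% interval -0.14 to 0.28), and both upper bounds are below the lower bound for Pik3r1. Foxo4, read at background on all 6 arrays, differed by 0.04 ± 0.08 (SE; limma adjusted p = 0.839).

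Ccng2 encodes cyclin G2, a cyclin linked to cell-cycle exit. It read 9.68, 9.66 and 9.48 in the controls and 10.11, 10.23 and 10.23 in the knockdown, and the groups did not overlap. The difference was 0.58 ± 0.09 (SE; 95% interval 0.39 to 0.78). Its paralog Ccng1, a p53 target, went from 12.34 ± 0.04 to 12.14 ± 0.10 (SD, n = 3 each) and did not pass (-0.19 ± 0.08; limma adjusted p = 0.239).

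Sesn1 encodes sestrin 1, a stress protein that restrains mTOR complex 1. Its signals were 8.03, 8.08 and 8.03 in the controls and 8.74, 8.54 and 8.58 in the knockdown, all 3 above the controls. The difference was 0.58 ± 0.08 (SE; 95% interval 0.39 to 0.77), 1.49-fold. Sesn2 and Sesn3, the other sestrins, differed by 0.04 ± 0.11 and 0.08 ± 0.08 and did not pass (limma adjusted p = 0.891 and 0.647).

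Gadd45a encodes a small stress protein of DNA repair and cell-cycle checkpoints. It read 8.45, 8.22 and 8.11 in the controls and 8.81, 8.74 and 8.72 in the knockdown. The groups did not overlap, but control replicate 1 came within 0.27 of the lowest knockdown array. The difference was 0.50 ± 0.10 (SE; 95% interval 0.27 to 0.72), 1.41-fold, and it passed in 2 of the 6 fits without 1 array, those without control replicate 1 and without knockdown replicate 5. Both paralogs rose as well. Gadd45b rose by 0.52 ± 0.09 (SE; limma adjusted p = 0.0119) and Gadd45g by 0.65 ± 0.10 (limma adjusted p = 0.0104). Of the 6 fits without 1 array, Gadd45b passed in 3 (adjusted p up to 0.0546) and Gadd45g in 5 (up to 0.0511).

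**Figure D2:**
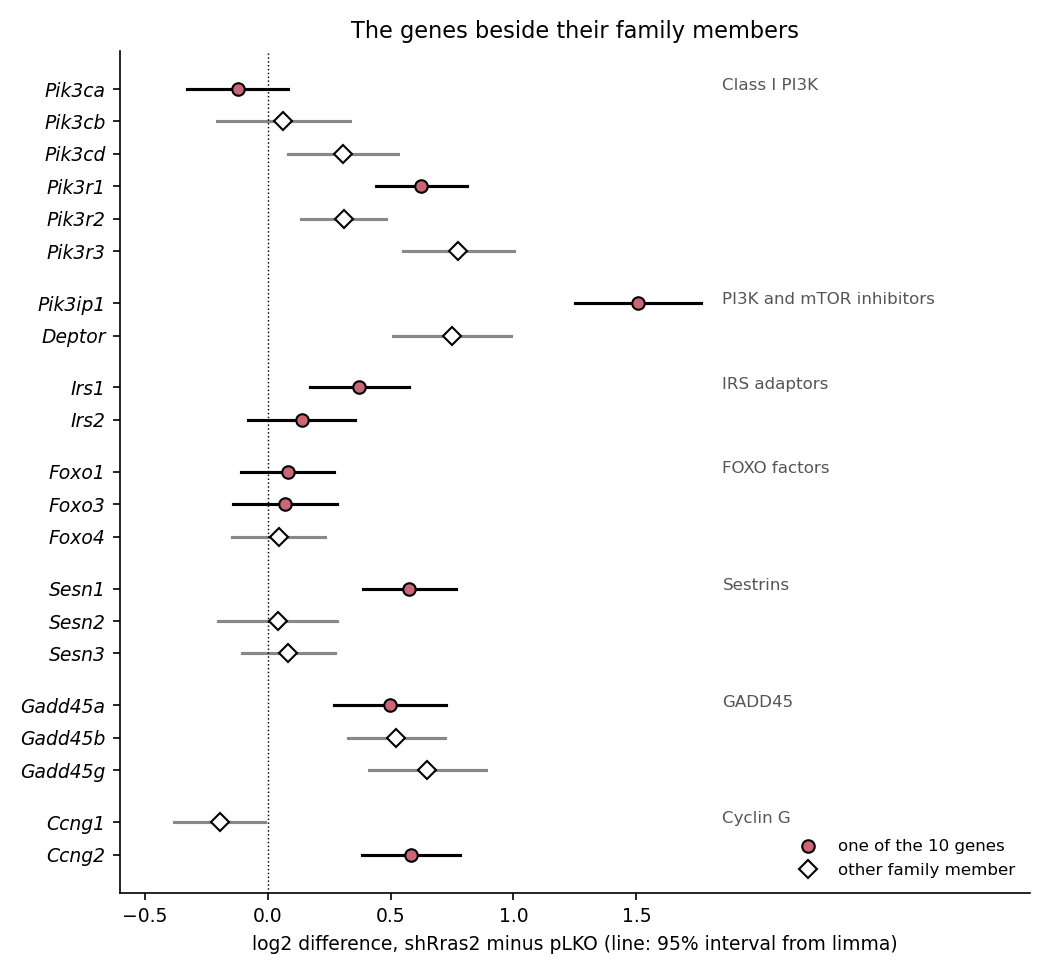
Log2 difference, shRras2 minus pLKO (horizontal axis), with its 95% interval from limma, for the 10 genes (filled circles) and other members of their families (open diamonds). Pik3r1 and Pik3r3 lie apart from the catalytic subunit genes Pik3ca and Pik3cb, Sesn1 from Sesn2 and Sesn3, and the 3 GADD45 genes lie between 0.50 and 0.65.

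Sesn1 and Gadd45a are also textbook p53 targets. Cdkn1a, which both p53 and FOXO factors are known to raise, differed by 0.20 ± 0.09 (SE; limma adjusted p = 0.28). Cdkn1b, a FOXO target that encodes a CDK inhibitor, differed by 0.22 ± 0.08 (limma adjusted p = 0.182). Neither passed, but for both genes every knockdown array lay above every control, where 25.5% of all genes had separate ranges. Cdkn1a read 12.62 to 12.79 in the controls and 12.82 to 13.05 in the knockdown. Cdkn1b read 10.29 to 10.42 in the controls and 10.51 to 10.69 in the knockdown. The part of p53 in these differences was not tested.

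The knockdown arrays did not rank the genes alike. Replicate 5, with the most Rras2 left, was the lowest knockdown array for 3 of the 6 genes past the threshold (Pik3ip1, Irs1 and Sesn1), replicate 4 for 2 (Pik3r1 and Ccng2) and replicate 6 for 1 (Gadd45a). Against the control mean, Pik3ip1 was higher by 1.52, 1.36 and 1.64 on replicates 4, 5 and 6, and Pik3r1 by 0.56, 0.68 and 0.64. Skeletal muscle markers moved with the group too. Of 25 such genes 15 rose, where 2.99% of all genes did, and the rest did not pass. The median difference of the 25 was 1.07. The summed linear signal of the 25 was 2413 to 2708 on the control arrays and 12188, 7225 and 10853 on knockdown replicates 4, 5 and 6. Mean signals of 13 of the 25 were below the negative-control percentile in both groups. Among them were Myf5, Ckm and Ttn, and also Des, Myh1, Myh7 and Tnnc2, which are counted as risen. The part of these muscle transcripts in the differences of the 10 genes was not tested. On replicate 5, where the muscle sum was lowest of the knockdown arrays, Pik3ip1, Irs1 and Sesn1 were also at their lowest of the 3. Pik3r1 was at its highest there, Ccng2 was at its highest by a small margin (0.625 above the control mean, against 0.623 on replicate 6), and Gadd45a lay between replicates 4 and 6. Of 11 measured fibroblast markers 3 rose and 0 fell, where 2.99% and 2.22% of all genes did. Those that rose were Col3a1 by 0.69 ± 0.15 (SE; limma adjusted p = 0.0313), Dcn by 0.76 ± 0.15 (0.0230, from levels below the negative-control percentile in both groups) and Pdgfrb, described with the receptors. At an unadjusted limma p under 0.05, 5 were higher and 0 lower, where 9.11% and 10.0% of all genes were. The summed linear signal of the 11 was 31083 to 31682 on the control arrays and 34242 to 34864 on the knockdown arrays, and the part of these markers was not tested. In bulk RNA, more cells of a type and more RNA per cell cannot be told apart.

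**Figure D3:**
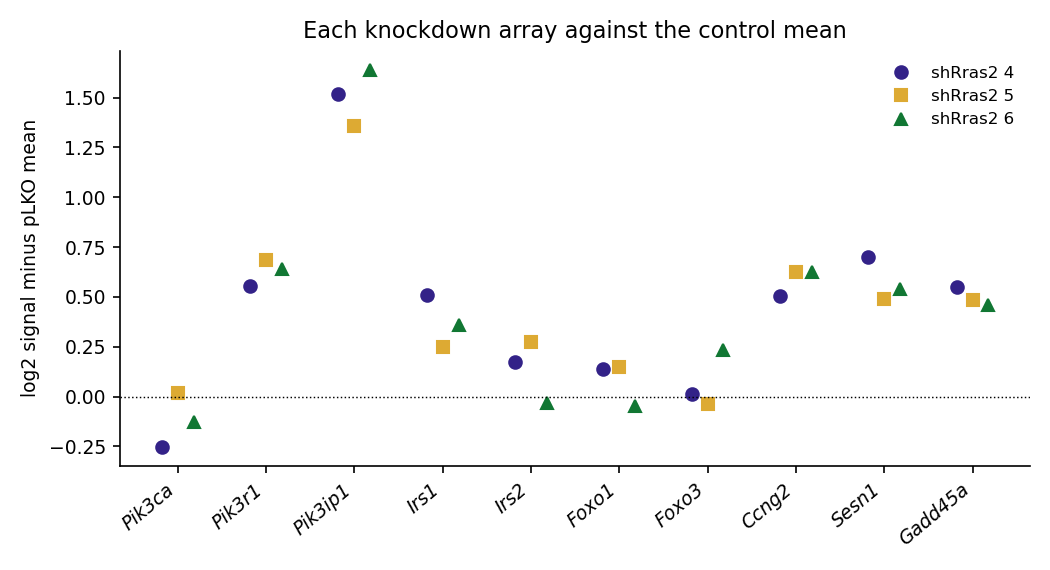
Log2 signal of each knockdown array minus the mean of the 3 pLKO arrays (vertical axis) for the 10 genes (horizontal axis), 1 point an array. For 6 genes all 3 points lie above 0.24, and for Pik3ca, Irs2, Foxo1 and Foxo3 the points fall on both sides of 0.

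The start-site regions of the 10 genes were searched for 3 short motifs, which were picked with these sequences in view. The motifs were GTAAACA, the FOXO consensus, CAAAACA, the core of the insulin response sequence that FOXO factors also bind, and CACGTG, the E-box, each on both strands. The windows are those of RefSeq on GRCm38.p6 and hold 250 bases before and 50 after each start. All 10 symbols matched, with 12 windows because Sesn1 and Pik3r1 have 2 starts each. CAAAACA was in 3 of the 12 windows, those of Irs1, Irs2 and Ccng2, against 6.28% of all 32851 windows. CACGTG was in 2, those of Irs1 and Irs2, against 7.15%, and GTAAACA in 1 of the Sesn1 windows, against 3.65%. Both CAAAACA and CACGTG were in 0.408% of all windows. These matches are a description and not sites of binding. The pieces that hold them are shown 5′ to 3′ on the gene's strand. Capitals mark CAAAACA, its reverse complement and the E-box, or for Sesn1 the reverse complement of GTAAACA.
Irs1, chr1:82291522-82291571, minus strand: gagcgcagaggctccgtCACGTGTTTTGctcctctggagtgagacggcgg
Irs2, chr8:11008938-11008987, minus strand: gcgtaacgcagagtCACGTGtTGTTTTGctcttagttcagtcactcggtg
Ccng2, chr5:93267523-93267572, plus strand: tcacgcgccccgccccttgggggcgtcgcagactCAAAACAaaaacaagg
Sesn1, chr10:41810585-41810614, plus strand: gaaccttctacTGTTTACcagccttttggg

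In Irs1 the E-box begins 115 bases before the start and shares 2 bases with the insulin response core, and a second copy of that core begins 32 bases before the start. In Irs2 the E-box begins 44 bases before the start and 1 base separates it from the core. The core in Ccng2 begins 16 bases before the start, and the Sesn1 match begins at base 23 of the transcribed part. Irs1 and Irs2 share an arrangement of letters, and the groups did not overlap for Irs1 and did for Irs2. The Pik3ip1 window, of the gene with the largest difference, held none of the 3 motifs. Its 250 bases before the start are given because the gene is a listed FOXO target with no match, and the lack of a match says only that these letters are not in this window.
Pik3ip1, chr11:3330481-3330730, plus strand: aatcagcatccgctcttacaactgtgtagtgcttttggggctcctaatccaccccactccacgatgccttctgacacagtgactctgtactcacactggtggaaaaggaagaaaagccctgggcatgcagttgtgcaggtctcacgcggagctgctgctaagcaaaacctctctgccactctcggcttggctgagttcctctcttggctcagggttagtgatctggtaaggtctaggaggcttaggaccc

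The rest of the pathway was read from lists of PI3K subunits, inhibitors and phosphatases, receptors and adaptors, AKT and mTOR components, and FOXO regulators. Without the 10 genes they hold 81 measured genes, of which 6 rose, 3 fell and 72 did not pass. Their median difference was -0.00, against -0.01 over all genes, and 11.1% of them passed, against 5.21% of all genes. Nothing is read from that excess, since these lists too were chosen with earlier results of these data known. The 81 were also more often detected. Both group means were below the negative-control percentile for 26 of them, against 11144 of all 19505 genes. Some listed genes were not analysed here. The number that passed was 4 or 5 without control replicate 1, 2 or 3 or knockdown replicate 4 or 6, and 8 without knockdown replicate 5.

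Upstream of the adaptors, the ligand genes Igf1 and Igf2, which act through IGF receptors and the IRS proteins, rose the most. Igf1 read 8.40, 9.29 and 8.33 in the controls and 10.82, 10.13 and 10.67 in the knockdown, a difference of 1.87 ± 0.26 (SE; limma adjusted p = 0.00583). Igf2 read 8.72, 8.86 and 8.84 in the controls and 10.60, 9.93 and 10.66 in the knockdown, a difference of 1.59 ± 0.18 (limma adjusted p = 0.00209). In both, every knockdown array exceeded every control and replicate 5 was the lowest of the 3. The receptor genes Igf1r and Insr differed by 0.10 ± 0.13 and -0.19 ± 0.10 and did not pass (limma adjusted p = 0.729 and 0.348). The PDGF receptor gene Pdgfrb rose by 0.37 ± 0.09 (limma adjusted p = 0.0486), in 1 of the 6 fits without 1 array.

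Of the 14 measured inhibitors and phosphatases other than Pik3ip1, 1 rose and 1 fell, where 2.99% of all genes rose and 2.22% fell. Deptor, which encodes an inhibitor of mTOR kinase, read 8.86, 8.68 and 8.90 in the controls and 9.45, 9.76 and 9.49 in the knockdown. It rose by 0.75 ± 0.11 (SE; limma adjusted p = 0.00609) and passed in all 6 fits without 1 array. Phlpp1, a phosphatase gene whose product removes an activating phosphate from AKT, fell by 0.43 ± 0.09 (limma adjusted p = 0.0299) and passed in 1 of those 6 fits.

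Among 18 AKT and mTOR genes 0 rose and 1 fell in limma, and the counts at an unadjusted p under 0.05 were 0 and 4, where 19.1% of all genes lay under it in either direction and 10.0% with a lower signal. The one past the threshold was Eif4ebp1, which encodes a translation repressor under mTOR control and is also listed as a FOXO target, and it fell by 0.43 ± 0.08 (limma adjusted p = 0.0206), in 1 of the 6 fits without 1 array. Akt1 and Akt2 differed by -0.22 ± 0.08 and -0.11 ± 0.09 and did not pass (limma adjusted p = 0.148 and 0.534). Among the FOXO regulators Setd7, a lysine methyltransferase gene, rose by 0.34 ± 0.08 (limma adjusted p = 0.0428). Ywhaz, whose product binds phosphorylated FOXO proteins, fell by 0.33 ± 0.08 (limma adjusted p = 0.0449). Without 1 array Setd7 passed in 1 of 6 fits and Ywhaz in 0.

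**Figure D4:**
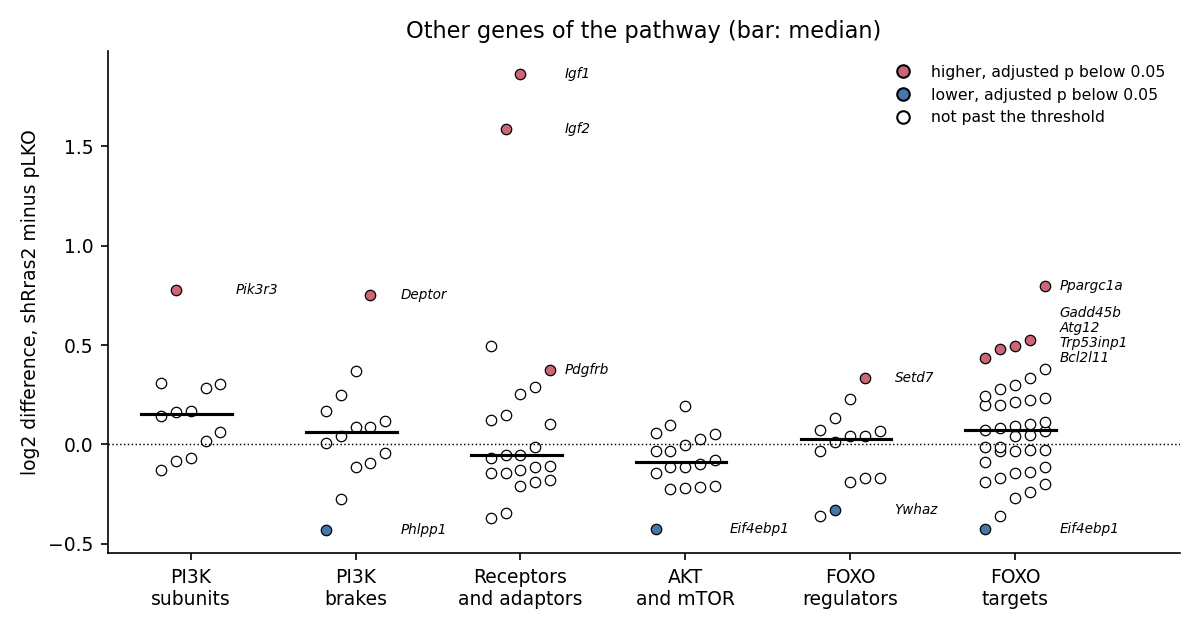
Log2 difference, shRras2 minus pLKO (vertical axis), of each measured gene of 6 pathway lists without the 10 genes (brakes are the inhibitors and phosphatases), 1 point a gene, with the list median as a bar. Filled points passed limma's threshold and are named. Medians lie between -0.09 (AKT and mTOR) and 0.15 (PI3K subunits), and most points are open.

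The FOXO target list held 40 other genes, of which 5 rose, 1 fell and 34 did not pass, with a median of 0.07 against -0.01 over all genes. Of all genes 5.21% passed, 2.99% higher and 2.22% lower. At an unadjusted limma p under 0.05, 12 of the 40 were higher and 4 lower, where 9.11% and 10.0% of all genes were. For 14 of the 40 both group means were below the negative-control percentile, against 11144 of all 19505 genes. Some of the 40 were known to differ in these data when the list was written, so the count is not independent of the 10 genes. Ppargc1a, a coactivator of mitochondrial genes, rose by 0.80 ± 0.10 (SE; limma adjusted p = 0.00407). The others were Gadd45b, the autophagy gene Atg12 (0.50 ± 0.08; limma adjusted p = 0.0104), the stress gene Trp53inp1 (0.48 ± 0.10; 0.0297) and the apoptosis activator Bcl2l11 (0.43 ± 0.08; 0.0222). Eif4ebp1 was the 1 that fell.

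The control signals of Ppargc1a, Trp53inp1 and Bcl2l11 were below the negative-control percentile on all 3 arrays. Only Ppargc1a passed in all 6 fits without 1 array, while Atg12 passed in 5, Bcl2l11 in 2 and Trp53inp1 in 1. The number past the threshold was 4 and 5 without control replicate 1 and knockdown replicate 5, 3 without control replicate 2 or knockdown replicate 4, 2 without control replicate 3 and 1 without knockdown replicate 6. The muscle markers that rose in the same arrays, given above, apply here too. None of the 40 genes was on the muscle list, but both lists were chosen by name, so that lack of overlap tests nothing. Genes of muscle wasting that FOXO factors raise in muscle did not pass: Fbxo32 differed by 0.20 ± 0.13 (limma adjusted p = 0.455) and Trim63 by 0.38 ± 0.17 (limma adjusted p = 0.257), both from levels below the negative-control percentile.

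The genes whose log2 profile over the 6 arrays, centred on its own mean, lay nearest that of Pik3ip1 among 8130 genes with a mean over all arrays above the negative-control percentile were Epha3, Mmp19, C1s1, Afap1l2 and Adamts4. Their root mean square distances from it were 0.05 to 0.11 on the log2 scale. Epha3 encodes an ephrin receptor, and Mmp19 and Adamts4 encode metalloproteinases of the matrix. For Pik3r1 the nearest were Enah, Asic1, 1110032A03Rik, Rel and Uchl1, at 0.04 to 0.06. Enah encodes an actin regulator, Rel an NF-kappaB subunit and Uchl1 a deubiquitinase. Epha3 and Mmp19 were above that percentile on 0 of 3 control arrays and Afap1l2 on 1, so they entered through the knockdown group. The choice by likeness fixes a difference near that of Pik3ip1 or Pik3r1, and these ranged from 1.30 to 1.57 for the first 5 genes and from 0.57 to 0.71 for the others.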

How the data were processed

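Total RNA of the 6 samples was hybridised to Affymetrix arrays, 1 per sample. The authors deposited 1 log2 signal for each probe set. According to the submitters' processing notes it was made by RMA under R 3.6.3, a method that subtracts background, forces arrays to 1 distribution and pools probes, and that compresses low signals. Filters and package version: not given in the sources used here. Of 29129 probe sets, 19572 had 1 symbol in the platform annotation, 2634 transcript probe sets had none and 0 had several. The brightest probe set was kept for 55 genes with more than 1, leaving 19505 genes. The background level was taken from 5222 negative-control probe sets.

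The group difference was estimated for each gene by lmFit and eBayes of limma (version 3.58.1, run under R 4.3.3), with no covariate. Two-sided p-values were adjusted over all 19505 genes by Benjamini-Hochberg, and 0.05 was the threshold. Medians, counts and alternatives used the same values. The script was tested on simulated data. The median SE was 0.0961, and the number of arrays limits the precision. Pearson correlations across genes were 0.9941 to 0.9966 within and 0.9884 to 0.9931 between groups, and no 2 arrays shared more than 2 identical gene values.

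The 10 genes and all lists were chosen with earlier results of these data known. Named genes are the 10, Rras2, listed genes past the threshold, fixed paralogs, Akt1, Akt2 and the 5 nearest profiles of Pik3ip1 and Pik3r1. Marker genes, Igf1r, Insr, Cdkn1a, Cdkn1b, Fbxo32 and Trim63 were named outside that rule, after their values were seen.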

Additional observations from a re-analysis of the deposited data

How the results depend on the processing

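Each result was recomputed under 7 other settings and without each array in turn. All 10 member differences stayed within 1 SD of the reported value in all 13, but in part of these settings the outcome was fixed. Leaving out 1 array cannot move a group mean by as much as that SD. Averaging of probe sets, leaving out the dimmest 30% of genes and a trended robust variance left the differences of these 10 genes unchanged. Under second quantile normalization, median centring, cyclic loess and array weights, no difference moved by more than 0.045. Rras2 passed in all 13 settings. Of the 6 members past the threshold, 4 (Pik3ip1, Pik3r1, Ccng2 and Sesn1) passed in every fit without 1 array, and the count of members was 4 to 6. Centring each array on its median left 5, without Irs1 (adjusted p = 0.0619). A trended robust variance in eBayes raised the counts that passed to 1908 for all genes, 14 for the other PI3K pathway genes and 11 for the other FOXO targets. Without 1 array the ranges were 392 to 1136, 4 to 8 and 1 to 5. For all genes the count was 1136 without knockdown replicate 5 and 392 to 589 without any other array, and the cause was not tested. Second quantile normalization, cyclic loess, array weights, averaging of probe sets and leaving out the dimmest 30% of genes kept every count within 1.5 times. The share of calls that were higher was 57.4%, and 47.2% after median centring. Signals below 7.92 are not distinguished from negative controls, so changes in Pik3cd, Foxo4, Fbxo32 and Trim63 can be missed. No paired analysis was possible because the groups share no replicate number.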
